A study of Mus musculus with 8 samples.

Results

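Cytokines, chemokines and their receptors were followed through the epididymal fat of 4 mouse lines as 93 genes of the 6137 named on the arrays. They were read by 108 probe sets out of 13069 that are not array controls. The members were chosen by gene symbol alone: symbols that begin with Ccl, Ccr, Cxcl, Cxcr or Il and a digit, with Tnf, with Csf2 or Csf3, or with Ltb, leaving out Ccl6 and Ccl9. A further 5 probe sets with a matching symbol were left out because the platform annotation gives them several genes. Chip A carried 75 of the member probe sets and chip B carried 33. The letters also take in Ltbp2 and Ltbp3, which encode latent TGF-beta binding proteins of the extracellular matrix and not lymphotoxins.

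The lines were DU6, DU6i, DUKs and DBA. As general background, DU6 mice were selected for high body weight, DU6i is an inbred line from that stock, DUKs is an unselected control line and DBA is an inbred strain. All animals were males aged 42 days, no treatment is named, and the labels do not say more of the genotypes. Fat from 20 males of a line was pooled as RNA and put on 1 array of each chip, so that the 8 arrays hold 4 pools and no replicate. The spread between animals is therefore not seen, and precision is limited by how few arrays there are. In the study's title DU6 and DU6i form 1 side and DUKs and DBA the other.

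Chemokines are small secreted proteins that guide white blood cells through receptors with a G protein partner; CC and CXC chemokines are named for the spacing of their first cysteines. Many, but not all, interleukins and colony stimulating factors act through receptor chains on the JAK-STAT pathway. The TNF family acts through trimeric receptors that feed NF-kB and cell death signalling. In fat these genes are mostly known from the macrophages and lymphocytes of the stroma. CCL2 and its receptor CCR2 are known for drawing monocytes into fat, and TNF for dampening the response of fat cells to insulin.

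A member was taken as detected where its signal lay above the floor of its chip, which is the 95th percentile of the sizes of that chip's negative signals, 1022.8 on chip A and 2258.25 on chip B. Of the 108 member probe sets, 29 probe sets of 28 genes passed the floor in 1 line or more, a share of 26.9%. Over all probe sets that share was 46.5%. On chip A 30.7% of the members passed against 58.0% of all probe sets, and on chip B 18.2% against 35.0%. All 4 lines were above the floor for 13 of the 29, 2 or 3 lines for 9, and 1 line for 7. The members above the floor numbered 21 in DU6, 18 in DU6i, 24 in DUKs and 19 in DBA.

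Detection differed by role. None of the 7 TNF family ligands passed in any line, and these were Tnf itself, Ltb (lymphotoxin beta), Tnfsf4, Tnfsf8, Tnfsf9, Tnfsf10 and Tnfsf11. Of 19 interleukins and interleukin antagonists only Il18 passed; among the 18 others were Il1a, Il1b, Il1rn, Il6, Il10 and Il15. Of 9 chemokine receptors only Ccr2 passed, and of 6 CXC chemokines only Cxcl12. The receptors of the TNF family passed in 6 of 9 genes, the CC chemokines in 7 of 11 and the interleukin receptor chains in 6 of 20. The 2 probe sets for Tnf read -46.2, -223.8, -57.4 and -63.6 on chip A and 215.1, 508.2, -290.3 and 120.5 on chip B in DU6, DU6i, DUKs and DBA. The probe set for Il6, a cytokine of the acute phase, read -319.8, 348.4, 407.8 and 169.1 in that order. These values lie among the chips' negative readings in size, so that these probe sets gave no measure of either transcript in any line. A lack of signal here does not show that a transcript was absent.

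**Figure D1:**
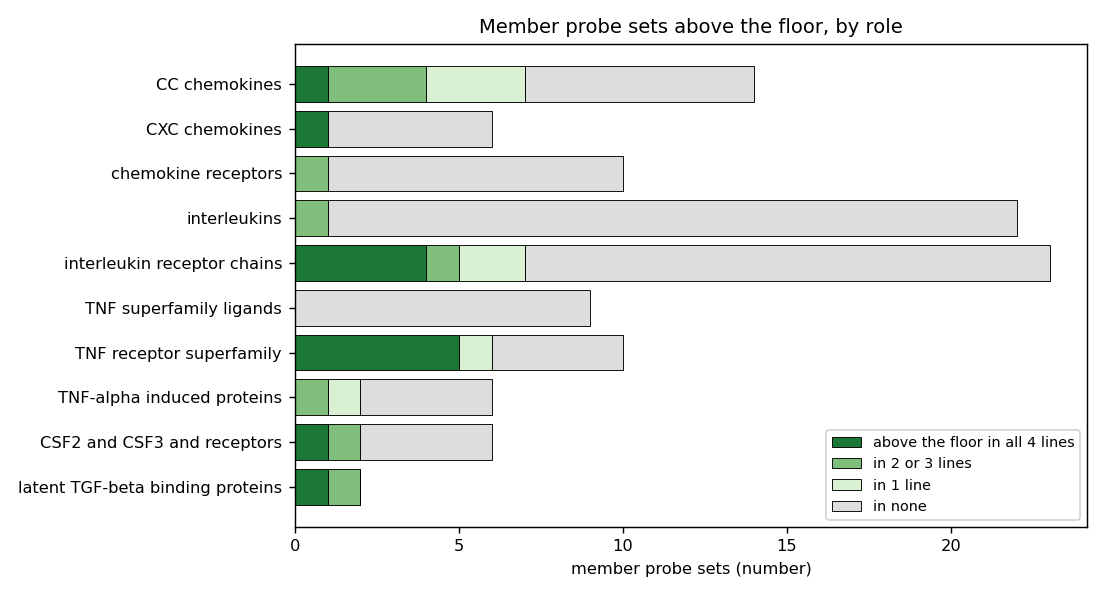
Number of member probe sets (x axis) in each role (y axis), split by how many lines were above the floor of their chip. The TNF family ligands have 0 of 9 probe sets above the floor, whereas the TNF receptor family has 6 of 10, 5 of them above it in all 4 lines.

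The 65 genes that passed on no array were read by 75 probe sets, and 98 of the 300 values, 32.7%, lay below 0. Their highest signal was 877.9 on chip A, for Tnfaip6 (a hyaluronan-binding protein) in DU6. On chip B it was 1623.3, for 1 of the probe sets of Tnfsf9 (the ligand of Tnfrsf9), also in DU6. Both are under the floor. Of the 15 member genes with several member probe sets, Il6st passed by more than 1 and Ccl4, Il15ra, Tnfaip2 and Tnfrsf1b passed by 1 only.

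A difference between lines was counted where it reached 2-fold after signals at or under the floor had been set to it, and a ratio with such a signal on 1 side is written "at least". By that rule, which is one of size and not a test, 6 of the 29 detected member probe sets differed by 2-fold or more between any 2 lines, 20.7%, against 26.0% of all detected probe sets. These 6 were Ccr2, Tnfrsf9, Tnfrsf21, Csf3, Il4ra and Ccl27a. The other 23 did not reach 2-fold by that rule. Where 1 side lay at or under the floor their ratio is a lower bound, and the true ratio may be wider.

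The stretch of 250 bases upstream of the start of 4 of these genes is shown so that the promoters of members with wide differences can be read and compared. They are RefSeq sequences of build GRCm38.p6, all from the plus strand, at chr4:150927749-150927998 for the Tnfrsf9 start with matches, chr9:124101933-124102182 for Ccr2, chr17:43016305-43016554 for Tnfrsf21 and chr7:125552021-125552270 for Il4ra. Capitals mark a match to the motif TTCNNNGAA, read by STAT factors, or to the kappaB motif, read by NF-kB, each searched on both strands.
Tnfrsf9: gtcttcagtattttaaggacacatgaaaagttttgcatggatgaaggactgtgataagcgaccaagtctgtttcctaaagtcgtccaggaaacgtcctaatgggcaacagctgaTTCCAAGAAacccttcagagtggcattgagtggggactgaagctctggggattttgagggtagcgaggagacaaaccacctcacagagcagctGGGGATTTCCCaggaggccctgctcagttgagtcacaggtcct
Ccr2: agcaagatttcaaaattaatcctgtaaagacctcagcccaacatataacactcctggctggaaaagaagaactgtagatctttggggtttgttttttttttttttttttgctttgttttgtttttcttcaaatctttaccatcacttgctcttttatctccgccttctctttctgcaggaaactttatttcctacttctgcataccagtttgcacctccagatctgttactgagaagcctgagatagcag
Tnfrsf21: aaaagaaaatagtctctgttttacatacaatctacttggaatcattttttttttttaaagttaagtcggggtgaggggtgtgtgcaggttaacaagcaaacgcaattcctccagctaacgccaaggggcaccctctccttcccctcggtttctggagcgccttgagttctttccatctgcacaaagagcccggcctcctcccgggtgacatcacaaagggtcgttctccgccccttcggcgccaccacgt
Il4ra: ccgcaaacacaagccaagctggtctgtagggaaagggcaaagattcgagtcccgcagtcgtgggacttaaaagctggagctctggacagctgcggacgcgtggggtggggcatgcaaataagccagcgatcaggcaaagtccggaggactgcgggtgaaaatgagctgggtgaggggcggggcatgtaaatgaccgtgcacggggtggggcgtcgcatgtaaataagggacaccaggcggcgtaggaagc

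Of these 4 stretches, that of Tnfrsf9 held matches: TTCNNNGAA beginning 136 bases before the start and 2 overlapping kappaB matches beginning 43 and 42 bases before it. The other listed start of Tnfrsf9 held neither, and nor did the listed starts of Ccl27a, which are not shown. Csf3 had no listed start. Among the 27 promoters listed for 22 of the detected member genes, 4 held a kappaB match (Il1r1, Tnfaip2, Tnfaip8l1 and Tnfrsf9), against 7.25% of 32851 promoters of all genes. For TTCNNNGAA it was 3 of 27 (Tnfrsf1a, Tnfrsf1b and Tnfrsf9), against 7.02%. Over the 87 promoters of all member genes with an entry, detected or not, 18.4% held a kappaB match and 13.8% a TTCNNNGAA match. A match is only a stretch of letters, and nothing in these arrays measured a factor there.

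**Figure D2:**
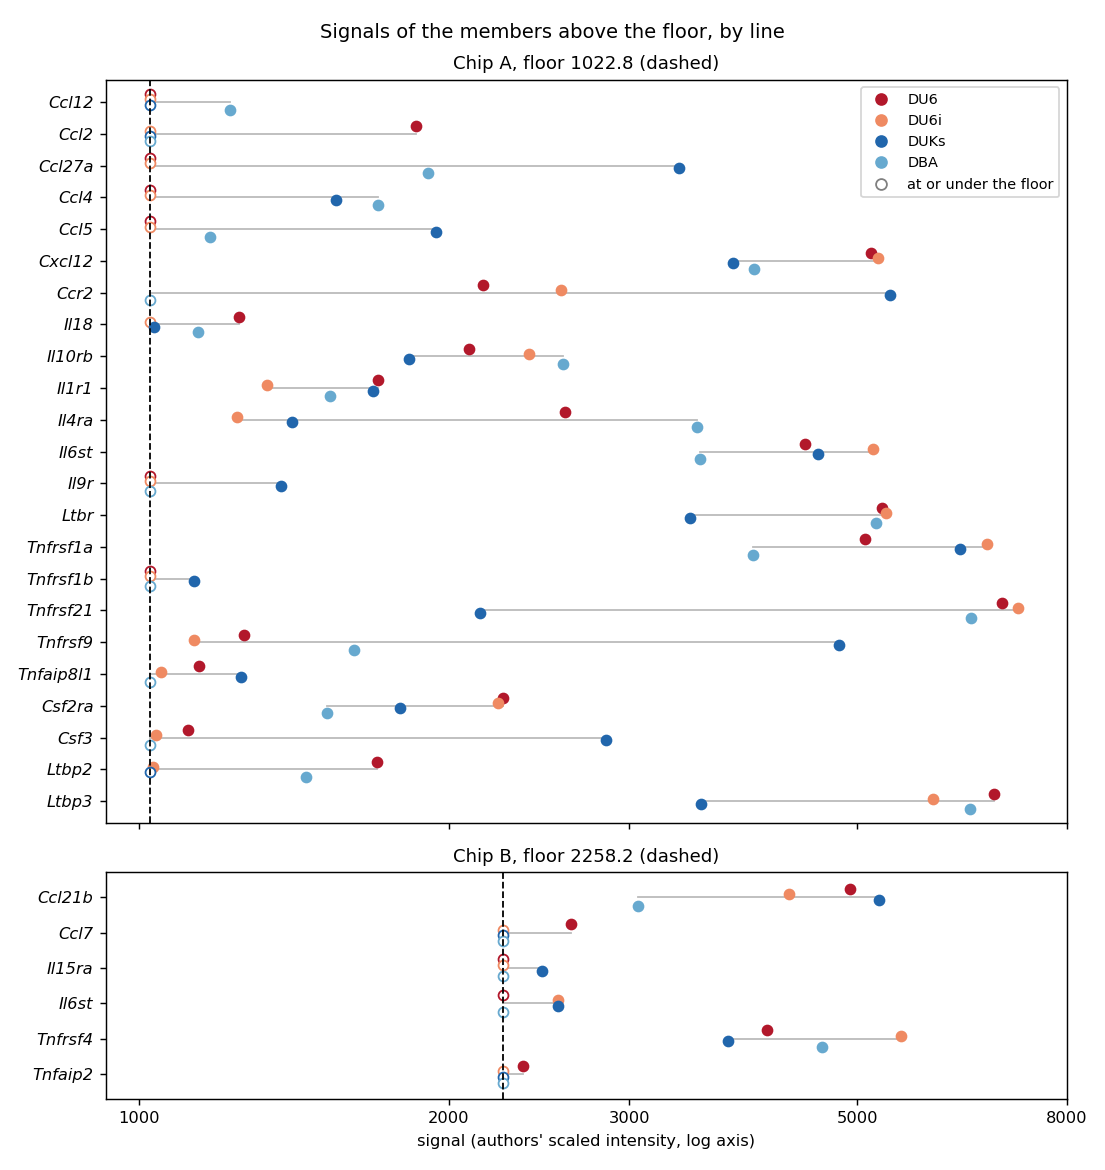
Signal (x axis, the authors' scaled intensity on a log axis) of the 29 member probe sets above the floor in at least 1 line, with 1 point for each line. Open points are signals at or under the floor, drawn at the floor (dashed line). Ccr2, Tnfrsf9 and Csf3 stand highest in DUKs, and Tnfrsf21 lowest.

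The CC chemokines, which act mainly on monocytes and lymphocytes, were detected in 1 or 2 lines each, apart from Ccl21b. Ccl2, the monocyte attractant that CCR2 reads, had a signal of 1858 in DU6 and of 830.9, 275.8 and 85.3 in DU6i, DUKs and DBA. It was above the floor in DU6 only, and at least 1.82-fold higher there than in each other line. Ccl7, another CCR2 ligand, had 2632 in DU6 and 1044, 805.9 and 827.9 in DU6i, DUKs and DBA, which is at least 1.17-fold higher in DU6. Ccl2 and Ccl7 are neighbours in the RefSeq gene table, and they lie on different chips here. Ccl12, a further monocyte attractant of the same gene cluster, passed in DBA only, with 1224 against 709.6, 783.2 and 873.5 in DU6, DU6i and DUKs. Ccl2 and Ccl7 were thus detected in DU6 and Ccl12 in DBA, and the lower bounds of these differences did not reach 2-fold. With the floor halved, the log2 ratios of DU6 to DUKs were at least 1.86 for Ccl2 and at least 1.22 for Ccl7, which is past 2-fold.

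Ccl27a, Ccl4 and Ccl5 passed in DUKs and DBA and in neither DU6 nor DU6i. Ccl27a, a chemokine best known from skin, had signals of 986.3 in DU6, 92.0 in DU6i, 3353 in DUKs and 1909 in DBA. DUKs was at least 3.28-fold higher than DU6 and than DU6i, and DBA at least 1.87-fold higher than each. Ccl27a overlaps Il11ra1 in the RefSeq gene table, and the strand the probes read was not checked, so the signals of the genes cannot be told apart. Ccl5, a T cell and monocyte attractant, had -209.9, 257.2, 1945 and 1170, so that DUKs exceeded DU6 by at least 1.90-fold and DBA exceeded DU6i by at least 1.14-fold. Ccl4, an attractant of monocytes and lymphocytes, had 961.9, 591.8, 1555 and 1707, with DUKs over DU6 by at least 1.52-fold and DBA over DU6i by at least 1.67-fold. With the floor halved, the log2 ratios of DU6i to DBA were -1.19 or lower for Ccl5 and -1.53 for Ccl4, past 2-fold. The DU6 signals of Ccl27a and Ccl4 lay just under the floor of 1022.8. The second Ccl4 probe set was below 0 on every array, with -660.7, -1267, -823.2 and -1063, so that the Ccl4 difference rests on 1 probe set. Ccl4 overlaps Ccl3 in the gene table, and Ccl3 did not pass.

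Ccl21b, a chemokine of lymphatic vessels that draws cells bearing CCR7, passed in all 4 lines with 4925, 4295, 5248 and 3056. DUKs was 1.72-fold higher than DBA, and DU6 and DUKs differed by 1.07-fold. Ccl21b has near-identical gene copies, and its probe set may read more than 1 of them. Its receptor gene Ccr7 did not pass in any line.

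Cxcl12, the stromal chemokine that holds blood cell precursors and lymphocytes through CXCR4, had 5158 in DU6, 5242 in DU6i, 3784 in DUKs and 3968 in DBA. Both lines of the DU6 side were above both others, by 1.36-fold for DU6 over DUKs and 1.32-fold for DU6i over DBA. In log2 these were 0.45 and 0.40, close to the error of a single ratio in these pairs, 0.44 and 0.34 (SD). Within a side the lines differed by 1.02-fold (DU6 and DU6i) and 1.05-fold (DUKs and DBA). Cxcr4 was under the floor on both chips.

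Ccr2, the receptor of CCL2, CCL7 and CCL12 on monocytes, had 2163 in DU6, 2574 in DU6i, 5385 in DUKs and 725.9 in DBA. It ran opposite ways in the main pairs: DU6 was 2.49-fold lower than DUKs, whereas DU6i was at least 2.52-fold higher than DBA. DUKs was at least 5.27-fold higher than DBA, the largest floored ratio of any member, and DU6 and DU6i differed by 1.19-fold. Bounds do not show which true ratio was widest. Ccr2 was not highest in the line where Ccl2 and Ccl7 were highest. Of 14 macrophage marker genes on the chips 13 passed (Fcgr1 did not), and their summed signal was 179958 in DU6, 170437 in DU6i, 142473 in DUKs and 108082 in DBA. DBA was lowest on both measures, and DUKs was highest for Ccr2 only. In a tissue sample fewer cells of a type and less RNA per cell cannot be told apart.

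Il18, an interleukin of the IL-1 family that acts with IL-12 on lymphocytes, had 1249, 803.9, 1033 and 1140 in DU6, DU6i, DUKs and DBA. All 4 lay close to the floor, and no ratio or lower bound exceeded 1.22-fold, so that the lines could not be ordered. Il18 overlaps Bco2 and Tex12 in the gene table.

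Among the interleukin receptor chains, Il4ra, the shared chain of the IL-4 and IL-13 receptors, had the widest floored ratio. Its signals were 2598 in DU6, 1244 in DU6i, 1406 in DUKs and 3490 in DBA. DU6i was 2.80-fold lower than DBA, DUKs 2.48-fold lower than DBA and DU6 2.09-fold higher than DU6i. DU6 was 1.85-fold higher than DUKs. DU6 and DBA were thus high and DU6i and DUKs low, a division that does not follow the sides of the study's title. Il4, Il13 and Il13ra1 did not pass.

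That division was shared by a measure of the labelled RNA. The middle probe set of the pyruvate carboxylase control on chip A read 15.3% of its 3′ probe set in DU6 and 19.5% in DBA, against 54.5% in DU6i and 53.9% in DUKs. All 9 adipocyte markers on the chips were above the floor in every line, and their summed signal was 160277 in DU6 and 162785 in DBA against 292256 in DU6i and 230195 in DUKs. Of these markers 6 of 9 were higher in both DU6i and DUKs than in DU6 and DBA, and Lep, Cidec and Slc2a4 were not. The last 2 are those read on chip B. A sum adds probe sets that are not comparable as levels, so the brightest weigh most in it. Ccr2 and Tnfrsf1a, also on chip A, were higher in both DU6i and DUKs than in DU6 and DBA. For Ccr2, DU6i exceeded DU6 by 1.19-fold only. Whether the control share or the adipocyte markers had a part in the Il4ra, Ccr2 or Tnfrsf1a values was not tested. Tnfaip2, an endothelial gene that TNF induces, had 2362, 1101, 476.2 and 1970 on chip B, and passed in DU6 only. Its other 3 signals were under the floor and have no order. Ltbp2 had 1704, 1031, 842.2 and 1453 on chip A, and like Il4ra was higher in DU6 and DBA than in DU6i and DUKs.

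Il6st, the gp130 chain shared by the receptors of IL-6 and its relatives, had 4448, 5179, 4579 and 3519 on chip A. On chip B its other probe set had 957.7, 2558, 2558 and 788.3, and passed in DU6i and DUKs only. The chip A values put DUKs and DU6 within 1.03-fold of each other, whereas on chip B DUKs was at least 1.13-fold higher than DU6. On chip A the signal was lowest in DBA, and on chip B DU6 and DBA were both under the floor and have no order. The DU6i and DUKs pools, high on chip B, are those with the higher control share on that chip too, at 45.3% and 55.6% against 12.7% in DU6 and 14.3% in DBA, and the part of this in the result was not tested. Il6ra, the chain that binds IL-6, did not pass.

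Il10rb, a chain of the IL-10 receptor, had 2094, 2398, 1830 and 2584, with DUKs 1.41-fold lower than DBA. Il1r1, the signalling receptor of IL-1, had 1706, 1330, 1688 and 1535, and its widest ratio was 1.28-fold. Il9r passed in DUKs only, with 1373, and Il15ra in DUKs only, with 2468 on chip B. Neither stood more than 1.34-fold above the floor. For Il10rb, the partner chain Il10ra did not pass, and of the ligands Il1a, Il1b, Il9, Il10 and Il15 none passed.

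The TNF receptor family held the members with the widest floored ratio in each direction between DU6 and DUKs. Tnfrsf21, death receptor 6, had 6918 in DU6, 7180 in DU6i, 2147 in DUKs and 6461 in DBA. DUKs alone was low, by 3.22-fold against DU6, 3.34-fold against DU6i and 3.01-fold against DBA, and the other 3 lines lay within 1.11-fold of each other. Tnfrsf9, the T cell costimulator 4-1BB, had 1263, 1131, 4801 and 1619. DUKs alone was high, 3.80-fold above DU6, 4.25-fold above DU6i and 2.96-fold above DBA. The suffix of this Tnfrsf9 probe set marks it as one that may read a family of sequences, so its identity is less certain than that of the others.

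Tnfrsf1a, the main receptor of TNF, had 5088 in DU6, 6694 in DU6i, 6305 in DUKs and 3955 in DBA. DU6i was 1.69-fold and DUKs 1.59-fold higher than DBA. Tnfrsf1b, the other TNF receptor, passed in DUKs only, with 1130 against 663.1 in DU6 and values below 0 in DU6i and DBA. Ltbr, the lymphotoxin beta receptor, had 5285, 5337, 3440 and 5212, and DUKs was 1.54-fold lower than DU6 and 1.52-fold lower than DBA. Tnfrsf4, the costimulator OX40, had 4085, 5515, 3745 and 4620 on chip B, with DU6i highest and 1.47-fold above DUKs. Tnfrsf4 overlaps Sdf4 in the gene table. Of these receptors, Tnfrsf21, Ltbr and Tnfrsf4 were lowest in DUKs, Tnfrsf4 by only 1.09-fold against DU6, and Tnfrsf1a was not. Tnfaip8l1, of the family of the TNF-induced gene Tnfaip8, had 1143, 1050, 1256 and 989.8, all near the floor.

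Csf3, the growth factor of neutrophils (G-CSF), had 1116 in DU6, 1039 in DU6i, 2846 in DUKs and 758.1 in DBA. DUKs was 2.55-fold above DU6, 2.74-fold above DU6i and at least 2.78-fold above DBA, while DU6 and DU6i lay at the floor within 1.07-fold of each other. Csf2ra, the chain that binds GM-CSF, had 2261, 2237, 1795 and 1523, so that DU6 was 1.26-fold above DUKs and DU6i 1.47-fold above DBA. The receptor gene Csf3r and the ligand gene Csf2 did not pass. Ltbp3, the matrix protein taken in by its letters, had 6790, 5934, 3522 and 6442 and was 1.93-fold lower in DUKs than in DU6.

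Ccr2, Tnfrsf9 and Csf3 were the members that stood 2-fold or more above each other line in DUKs, 3 of 29 where 2.07% of all detected probe sets did so. In DU6, DU6i and DBA 0 of 29 did so, against 0.51%, 0.609% and 1.3% of all. Below each other line by that size were Tnfrsf21 in DUKs and Ccr2 in DBA, 2 of 29 against 2.16% of all. Some markers of other cells, picked here after their values were seen, were also highest in DUKs. Ms4a1 (CD20, of B cells) was 6080 there against 3185 in DU6, 1415 in DU6i and 2680 in DBA, and S100a9, a neutrophil protein, was 2146 and under the floor in the others. S100a8, its partner protein, was instead highest in DU6i, with 3572, 5384, 2923 and 1845 in DU6, DU6i, DUKs and DBA. Of 8 neutrophil markers 5 passed in some line, and Ngp, Camp and Ltf were, like S100a9, highest in DUKs. Ngp had 4444 there against 2072 in DU6, 692.2 in DU6i and 1192 in DBA, and Camp and Ltf passed in DUKs only. The summed signal over all 8 neutrophil markers was 10814, 11677, 16878 and 7816 in DU6, DU6i, DUKs and DBA. Elane, Ly6g and Mpo were under the floor in every line. Of 9 B cell markers 5 passed, and their summed signal over all 9 was highest in DU6, at 54352 against 33944, 36819 and 31257. Most of that sum was Ighm, with 47733, 28829, 24835 and 23597 in DU6, DU6i, DUKs and DBA. Jchain, at 2639 and under the floor in the others, and Blk, at 1461, were highest in DUKs as Ms4a1 was. Cd79b was under the floor in DUKs. Of 11 T and NK cell markers 10 were under the floor in all lines, and Cd3e passed in DU6i only. The 6 male germ cell markers, of the testis beside this fat pad, had a summed signal of 202031 in DUKs against 52034 in DU6, 37539 in DU6i and 94645 in DBA. The part of these cells in the DUKs values was not tested.

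Between DU6 and DUKs 28 member probe sets were measured, meaning that at least 1 of the pair was above the floor. One gene, Tnfrsf21, was 2-fold or more higher in DU6, 1 of 28 against 3.91% of all probe sets measured. Lower were 4 of 28, Ccl27a, Ccr2, Csf3 and Tnfrsf9, against 6.3% of all. The members split evenly, 14 higher and 14 lower, with a median log2 ratio of -0.01 against 0.05 over all probe sets. The error of a single log2 ratio, taken from 346 genes with several probe sets, had an SD of 0.44. The floored ratios of 15 of the 28 members were smaller than that error, some of them lower bounds. That error covers probe sets and chips and not pools or animals.

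Between DU6i and DBA 23 members were measured. Ccr2 was higher, 1 of 23 against 4.79% of all, and Il4ra was lower, 1 of 23 against 6.68%. The median log2 ratio was 0.02 against -0.03 over all, with 12 members higher and 11 lower. The floored ratios of 12 were smaller than the error of 0.34, some of them lower bounds. In both main pairs the members' median was thus close to that of all probe sets.

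Within the sides the counts were as small. Il4ra was higher in DU6 than in DU6i, 1 of 22 against 4.8% of all, and 0 of 22 were lower against 5.7%. There, the floored ratios of 19 of the 22 members were smaller than the error of 0.46, some of them lower bounds. The median was 0.08 against 0.07 over all. Between DUKs and DBA Ccr2, Csf3 and Tnfrsf9 were higher, 3 of 26 against 6.01%, and Il4ra and Tnfrsf21 lower, 2 of 26 against 5.29%. The median was 0.14 against -0.01 over all. DU6 with DUKs shares the DUKs array with the latter pair, so the counts are not independent.

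**Figure D3:**
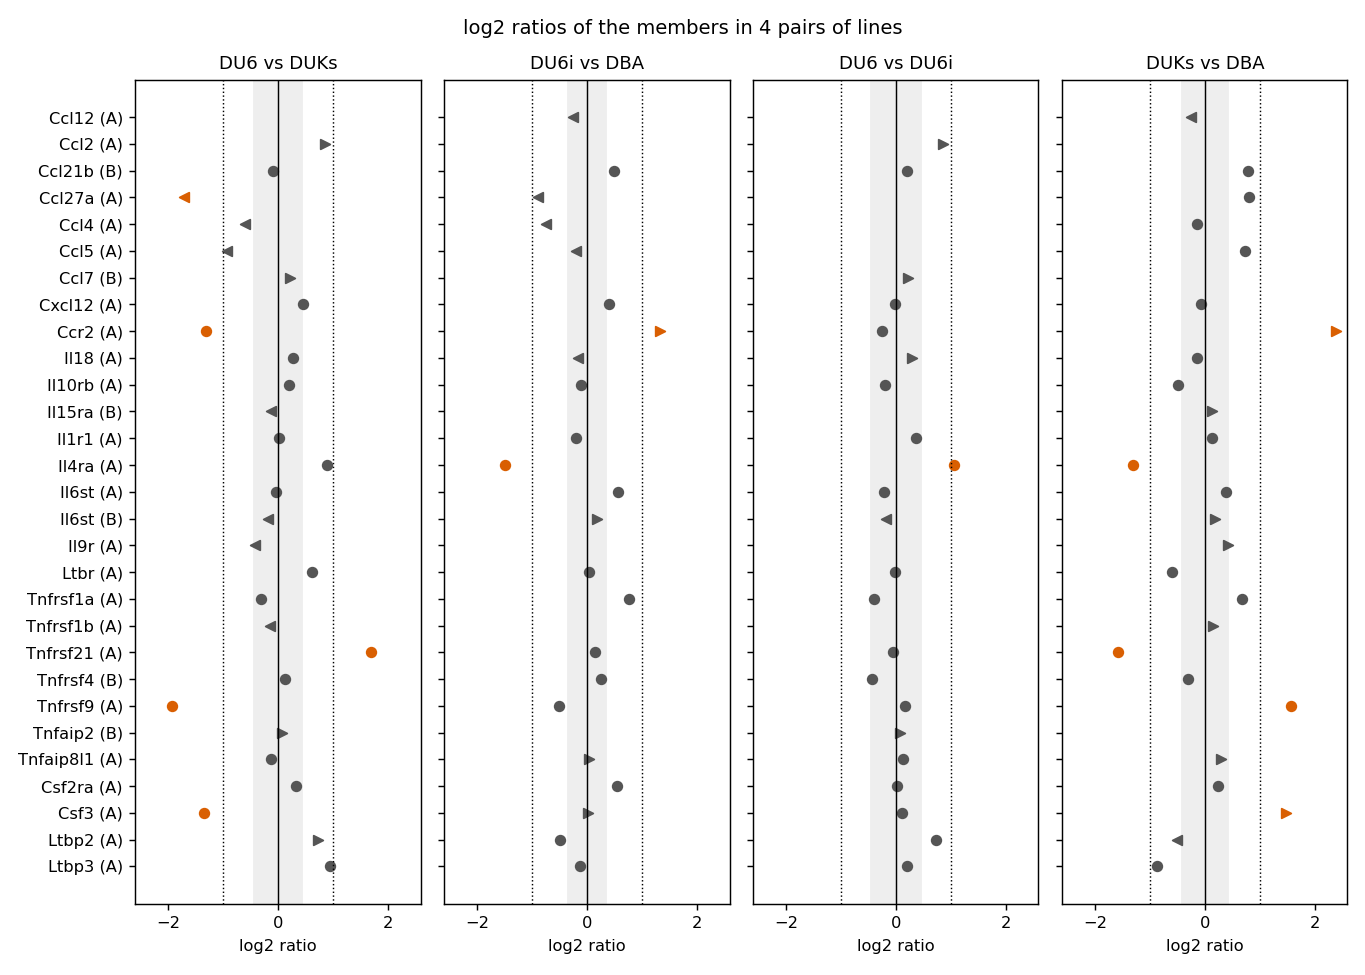
The log2 ratio (x axis, first line over second) of the detected member probe sets (y axis, chip in brackets) in 4 pairs of lines. Triangles are bounds with 1 side at or under the floor, dotted lines mark 2-fold, orange marks members past it, and the grey band is the SD of a single ratio. Ccr2 lies left of the band in DU6 vs DUKs and right of it in DU6i vs DBA.

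**Figure D4:**
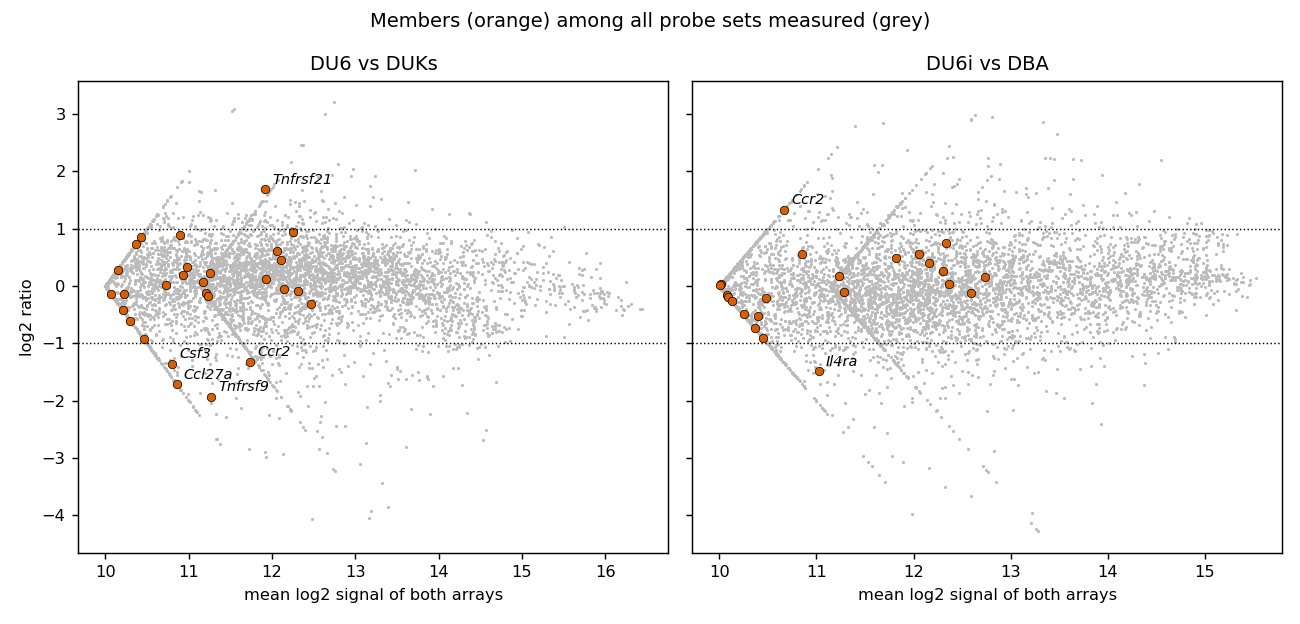
The log2 ratio (y axis) against the mean log2 signal of both arrays (x axis) for all probe sets measured in a main pair (grey) and the members (orange, named past 2-fold, dotted). The slanted edges are ratios with 1 side at the floor of chip A or of chip B. In DU6 vs DUKs 1 member lies above the upper line and 4 below the lower line, and in DU6i vs DBA 1 lies past each.

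Across the sides of the study's title, 4 of the 29 detected members were higher in both DU6 and DU6i than in either of DUKs and DBA, against 14.6% of all detected probe sets. These were Csf2ra, Cxcl12, Ltbr and Tnfrsf21, although for Ltbr and Tnfrsf21 DBA lay within 1.11-fold of DU6 and DU6i and DUKs alone was low. The order of Ltbr was lost under quantile normalisation and under median centring. Another 4 of 29 were lower in both, against 11.6% of all: Ccl27a, Ccl4, Ccl5 and Tnfrsf9. In DU6 and DU6i all 3 chemokines among them were under the floor. The 6 male germ cell markers were likewise 6 of 6 lower in both, among them the sperm enzyme gene Ldhc with 3450, 2604, 23076 and 10134. The part of germ cells in these members' values, Ccl27a included, was not tested. With the floor doubled, this count of lower members was 0.

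limma tested the mean of DU6 and DU6i against that of the other pair, and its error is the spread between lines. After Benjamini-Hochberg adjustment over 5267 probe sets it called 0 of the 22 members tested, and 0% of all. The smallest adjusted p among the members in limma's test was 0.978, for Ccl27a, with a log2 difference of -1.31 ± 0.35 (SE), lower in both lines of the DU6 side. Before adjustment limma gave a p under 0.05 to 2 of the 22 members, Ccl27a and Ccl4, and to 252 of all 5267. For Ccl27a and Ccl4, DU6 and DU6i lay under the floor and were set to it, so that side had no spread. Their differences are therefore lower bounds in size, and their errors and p rest partly on the floor. With 2 lines a side, the smallest two-sided p of an exact permutation test would be 0.333. DU6i came from DU6, so the lines of that side are not independent.

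Of 75 further genes of these pathways, listed by name, 51 were on the chips, 30 passed in at least 1 line and 19 in all 4. Of all probe sets 46.5% passed in at least 1 line, and of those with 1 gene name 61.8% on chip A and 47.6% on chip B. These shares count probe sets and not genes. Between DU6 and DUKs 2 of 27 measured were 2-fold or more higher, against 3.91% of all probe sets: Csf1r, the receptor of the macrophage growth factor, by 2.08-fold and Myd88, the adaptor of the IL-1 and Toll-like receptors, by 2.26-fold. Stat4, which carries the IL-12 signal, was lower by at least 3.40-fold, 1 of 27 against 6.3% of all, with 344.7 in DU6, 195.4 in DU6i, 3480 in DUKs and 1217 in DBA. Like the 6 male germ cell markers, Stat4 was lower in both DU6 and DU6i than in DUKs and DBA. The part of germ cells in the Stat4 values was not tested. Between DU6i and DBA 2 of 29 were higher, against 4.79% of all, the CXCL12-binding receptor Ackr3 by 3.04-fold and the interferon gamma receptor Ifngr1 by 2.76-fold, and 0 of 29 were lower, against 6.68%. The median log2 ratio of these genes was 0.40 in DU6 vs DUKs, where that of all probe sets was 0.05, and -0.01 in DU6i vs DBA. Stat3, which acts below gp130, had 13468, 12673, 10053 and 11180 in DU6, DU6i, DUKs and DBA. Nfkbia, the inhibitor that holds NF-kB in the cytoplasm, had 9248, 7879, 5606 and 10187 on chip B. Rela, an NF-kB subunit, had 6537, 6047, 6176 and 6777. Rela and Stat3 were above the floor in every line with at most 1.34-fold between lines, whereas the cytokines that feed them, Tnf and Il6, passed in none.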

How the data were processed

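Per the labels, the authors obtained intensity values from Data Mining Tool 1.2 and Microarray Suite 4.0.1, after scaling each array on its whole set of probes. The deposited intensity values are linear and can be negative, detection calls were not used here, and that they are average differences is not stated. Scaling fixes the overall level of an array, so every ratio is relative to it. Gene names came from the platform annotation, and all 108 members matched the RefSeq gene table. Chips were compared only within themselves. No pair has a replicate, so pairs have no test. limma 3.58.1 (lmFit and eBayes, R 4.3.3) was fitted to log2 of floored signals above the floor on at least 2 arrays, each chip alone, and was tested on simulated data. Tables and plots were made with Python 3.11.15, pandas 2.3.3 and matplotlib 3.10.9. Signals of different probe sets are not comparable as levels. Every member above the floor is named. All 4 signals are given for those with 2-fold between any lines and for the 3 with the highest signals of each role. The members, lists and alternatives were chosen with earlier results of these data known. Other floors, scalings, log scales and filters were tried, 1 probe set a gene, chip A alone, and limma without each line.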

Additional observations from a re-analysis of the deposited data

Results flagged for a closer look

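Ccr2 moved in opposite directions in the main pairs: DUKs exceeded DU6, whereas DU6i exceeded DBA. The log2 ratio of DU6 to DUKs minus that of DU6i to DBA was -2.65. DBA was under the floor, so the ratio of DU6i to DBA is a bound. Each line is 1 pool, and the difference was not tested. Ccr2 was higher in DU6i and DUKs than in DU6 and DBA, a division shared by the pyruvate carboxylase control share. The part of this in the Ccr2 values was not tested either.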

How the results depend on the processing

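The count of detected members, 29, was 44 with the floor halved and 15 with it doubled. With the floor halved, DU6 vs DUKs had 5 members higher and 7 lower, DU6i vs DBA 2 higher and 4 lower, and DU6 vs DU6i 4 higher and 1 lower, 6 were higher in DUKs vs DBA, and the median there was 0.34. With it doubled, 2 were lower in DU6 vs DUKs, 0 higher and 0 lower in DU6i vs DBA (median 0.15), 0 higher in DU6 vs DU6i (median -0.038) and 1 lower in DUKs vs DBA. With log2(signal + floor) 2 were higher in DU6 vs DUKs, 0 higher in DU6 vs DU6i and 1 lower in DUKs vs DBA. Median centring gave a median of -0.15 in DU6 vs DUKs, where the median of all probe sets moved from 0.05 to -0.065. In DU6 vs DU6i the members' median was -0.058 under median centring and -0.11 under quantile normalisation. Under both, 0 members were higher in DU6 than DU6i. Members above the floor on both arrays had 0 higher in DU6i vs DBA and 1 higher in DUKs vs DBA, where the median was -0.068. For DU6 vs DUKs that median was 0.13. Chip A alone gave a median of -0.11 in DU6i vs DBA. Without a filter limma called 4 of all probe sets and 0 members, and leaving out each line it called 0 throughout. The causes were not tested. Tnfrsf21 stayed lowest in DUKs by 2-fold and Tnfrsf9 highest there under all 8 settings, while Ccr2 left the latter group under quantile normalisation, Csf3 with the floor doubled, and both with log2(signal + floor). Of 447 single ratios under an alternative 51 moved beyond the error of a ratio. Of all 447, 13 changed sign, 6 under quantile normalisation and 7 under median centring, all with a log2 ratio of 0.16 or less in size before, and 0 of them had reached 2-fold. Signals near the floor limit the ratios of Ccl12, Il18, Tnfaip2, Tnfaip8l1 and Tnfrsf1b. Bounds of Ccl2, Ccl4, Ccl5, Ccl7, Ccl27a, Ccr2, Il9r and the chip B probe set of Il6st also moved with the floor halved.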
